A study of Mus musculus with 8 samples.

Results

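The mouse mitochondrial chromosome carries 37 genes, and all 37 were measured in total RNA from the primary motor cortex (M1) after knockdown of *Fezf2*, the gene of a transcription factor of cortical projection neurons. The members were all genes on this chromosome in the annotation, whose symbols start with mt-, and they made up 37 of the 38031 genes in the count table. They are 2 ribosomal RNA (rRNA) genes, 13 protein-coding (mRNA) genes and 22 transfer RNA (tRNA) genes. The 8 libraries came from male Swiss Webster mice that received a lentivirus in M1 at P21-P25 and were aged P49-P53 at dissection. The *Fezf2* shRNA group (4 libraries) and the non-silencing shRNA control group (4 libraries) both carried a vector with mCherry and the shRNA driven by a Synapsin I promoter, which is active in neurons. The dissected tissue was chosen by mCherry and held transduced and untransduced cells of every type in M1, so that a lower RNA level per cell and fewer cells of a type cannot be told apart. The record gives n = 4 of each treatment, each library was taken as 1 animal, and the p-values measure the spread between these libraries.

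Mitochondria keep a small circular genome of their own, which is copied and transcribed by nuclear-encoded enzymes inside the organelle. Both strands are read as long precursors, and most mRNAs and rRNAs are released when the tRNAs that lie between them are cut out. The rRNAs form the mitochondrial ribosome, the tRNAs serve it, and the mRNAs encode core subunits of respiratory complexes I, III and IV and of the ATP synthase (complex V), on which neurons draw heavily.

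The count table gave 54684016 to 58003814 counts on genes per library, counting 1 transcript per gene. *Fezf2* itself had 688, 767, 735 and 702 normalized counts in the controls and 621, 583, 568 and 592 in the *Fezf2* shRNA libraries. These groups did not overlap, with a log2 fold change of -0.29 (SE 0.0781, adjusted p = 0.0824 by the Benjamini-Hochberg method in edgeR's quasi-likelihood test). The 37 markers of 11 cell types were all detected. Of these, 27 passed the filter on low counts and none of the 27 passed the threshold in either direction, against 2.09% of all genes tested. The other 10, including all markers of endothelial cells, meningeal fibroblasts and skeletal muscle, were not tested. The median log2 fold change was -0.56 for the 4 oligodendrocyte markers and 0.39 for the 4 red blood cell markers. The summed level of 4 oligodendrocyte markers was 966 to 1911 CPM (counts scaled to a common library total) in the controls and 730 to 1223 in the *Fezf2* shRNA libraries, and that of 4 red blood cell markers was 17.9 to 81.8 and 34.2 to 103 CPM. Their part in the mitochondrial values was not tested.

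Because the genes lie almost without gaps, the boundaries between them decide which reads a gene was given. Some of the joints that bear on the counts are shown from the annotated transcripts of GRCm38. Of the 36 pairs of neighbours, 9 share bases, 12 touch and 15 have a gap, of at most 32 bases. The first sequences give the joint between *mt-Co1*, which encodes a core subunit of cytochrome c oxidase, and *mt-Ts1*, a serine tRNA gene on the other strand, with the bases shared by both genes in capitals. The plus strand from chrM:6855-6887 is followed by the whole *mt-Ts1* on the minus strand, chrM:6870-6938.
mt-Co1/mt-Ts1 overlap: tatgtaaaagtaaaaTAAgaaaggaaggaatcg
mt-Ts1: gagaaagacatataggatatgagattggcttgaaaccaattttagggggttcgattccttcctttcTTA
The 3 shared bases are the stop codon of *mt-Co1* on the plus strand and the last bases of *mt-Ts1* on the minus strand.

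The next pair shows a tRNA gene set between longer neighbours on the same strand, with the tRNA in capitals. The valine gene *mt-Tv* touches both rRNA genes (chrM:1010-1108, plus strand), and the leucine gene *mt-Tl1* touches *mt-Rnr2* and *mt-Nd1* (chrM:2661-2765, plus strand).
mt-Tv with neighbours: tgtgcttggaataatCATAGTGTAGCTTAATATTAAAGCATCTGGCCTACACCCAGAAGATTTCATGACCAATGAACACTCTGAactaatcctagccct
mt-Tl1 with neighbours: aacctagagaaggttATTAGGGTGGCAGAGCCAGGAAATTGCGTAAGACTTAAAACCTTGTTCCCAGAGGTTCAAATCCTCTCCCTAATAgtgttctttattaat
The last pair shows the mRNA genes that overlap in their reading frames, with the shared bases in capitals: *mt-Atp8* and *mt-Atp6* (chrM:7912-7984, plus strand, 43 shared bases) and *mt-Nd4l* and *mt-Nd4* (chrM:10152-10188, plus strand, 7 shared bases).
mt-Atp8/mt-Atp6 overlap: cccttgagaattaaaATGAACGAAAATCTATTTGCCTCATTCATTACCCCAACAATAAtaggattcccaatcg
mt-Nd4l/mt-Nd4 overlap: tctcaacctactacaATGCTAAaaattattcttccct
By default the counting tool, BEDTools multiCov, gives a read in shared bases to both genes and ignores strand, and the options used were not given in the sources used here.

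The mitochondrial genes took 28.2% to 30.6% of the counts in the control libraries and 27.7% to 30.8% in the *Fezf2* shRNA libraries. The rRNAs took most of this. Their share was 26.6%, 25.4%, 24.9% and 24.6% in the controls (25.4% ± 0.911, SD, n = 4) and 26.8%, 26.1%, 24.6% and 26.3% in the *Fezf2* shRNA libraries (26.0% ± 0.951, SD, n = 4). The groups overlapped, and the means differed by 0.579 percentage points, which is less than either SD. Leaving out control replicate 1 gave 0.999 points and leaving out *Fezf2* shRNA replicate 3 gave 1.03, both above these SDs, and the difference was 0.297 without *Fezf2* shRNA replicate 1 and 0.303 without control replicate 4. These shares are of counts on 1 transcript per gene. With the counts of all transcripts as the denominator, the mean rRNA share was 11.3% in the controls and 11.4% in the *Fezf2* shRNA libraries. The mean mRNA share was then 1.57% and 1.51%.

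The 13 mRNAs took 3.85%, 3.52%, 3.22% and 3.497% of the counts in the controls and 3.82%, 3.41%, 3.01% and 3.53% in the *Fezf2* shRNA libraries. The highest values belonged to replicate 1 of each treatment and the lowest to replicate 3 of each, and the means (3.52% ± 0.256 and 3.44% ± 0.334, SD, n = 4 each) were within the spread of the libraries. The difference of the means, -0.079 percentage points, was above 0 when control replicate 1 (0.029) or *Fezf2* shRNA replicate 3 (0.064) was left out, and -0.204 and -0.179 without *Fezf2* shRNA replicate 1 and without control replicate 3. The 22 tRNA genes took 0.151%, 0.144%, 0.144% and 0.147% in the controls and 0.149%, 0.143%, 0.119% and 0.147% in the *Fezf2* shRNA libraries. Here 7 libraries lay close together and *Fezf2* shRNA replicate 3 was the lowest. The difference of the means, -0.0071 percentage points, was -0.00041 without that library.

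**Figure D1:**
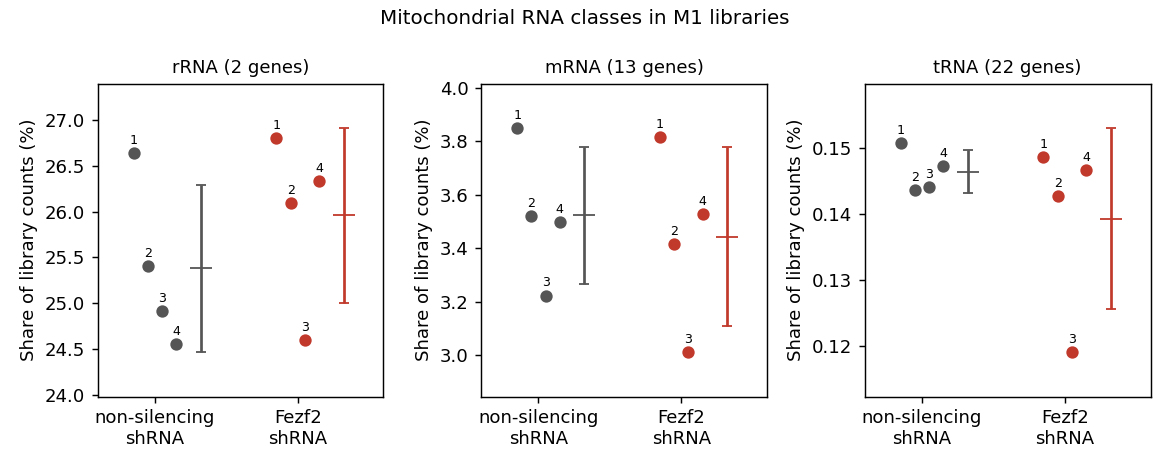
Share of library counts (%) taken by mitochondrial rRNA, mRNA and tRNA genes, with 1 point per library, numbered by replicate, and bars for the mean ± SD (n = 4). The axes do not start at 0; the treatments overlap in each class, and *Fezf2* shRNA replicate 3, at 0.119%, is the lowest tRNA share.

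Within the mitochondrial counts, the tRNA genes made up 0.492%, 0.494%, 0.510% and 0.522% in the controls and 0.483%, 0.481%, 0.430% and 0.489% in the *Fezf2* shRNA libraries. All *Fezf2* shRNA values were below all control values, though the nearest libraries (0.489% and 0.492%) nearly met. It was the only 1 of 23 shares and ratios computed over the classes whose groups did not overlap, and it got no test. Without *mt-Ts1* the groups overlapped (0.115% to 0.134% in the controls and 0.104% to 0.129% in the *Fezf2* shRNA libraries). Among single genes tested across the genome, 4.41% had groups that did not overlap with *Fezf2* shRNA lower. The ratio of rRNA to mRNA counts was 7.22 ± 0.360 in the controls and 7.57 ± 0.474 in the *Fezf2* shRNA libraries (SD, n = 4 each), with overlapping groups.

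The rRNA class joins a large and a small part. *mt-Rnr2*, the RNA of the large subunit of the mitochondrial ribosome (chrM:1094-2675, plus strand), had 14238269, 12807330, 12945984 and 12241028 counts in the controls. It had 13936024, 13449438, 12326780 and 12946027 in the *Fezf2* shRNA libraries. These are 22.4% to 24.5% and 21.9% to 24.5% of a library, and the groups covered the same range.

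*mt-Rnr1*, the RNA of the small subunit (chrM:70-1024, plus strand), had 1213280, 1277895, 1184172 and 1184215 counts in the controls. It had 1334199, 1293833, 1489481 and 1780141 in the *Fezf2* shRNA libraries. As a share of the library the controls lay at 2.09% to 2.31% (2.16% ± 0.102, SD, n = 4) and the *Fezf2* shRNA libraries at 2.29% to 3.18% (2.62% ± 0.410, SD, n = 4). *Fezf2* shRNA replicates 3 and 4 stood above every control, replicate 1 was barely above the highest control, and replicate 2 was just below it.

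*mt-Rnr1* was the member with the largest fitted difference. Its log2 fold change was 0.30 (SE 0.111, 95% interval 0.06 to 0.55) with an unadjusted p of 0.0210 and an adjusted p of 0.180 in edgeR's quasi-likelihood test over 9959 genes. It was therefore under the threshold used for all genes, which was an adjusted p of at most 0.05 with a log2 fold change of at least 0.2 in either direction. DESeq2 on the same counts gave 0.26 when its prior was used (adjusted p = 0.0439). With no prior it gave 0.31 (adjusted p = 0.0436), and both values were past the threshold. Without *Fezf2* shRNA replicate 4 the edgeR value was 0.19 (adjusted p = 0.383), so that part of the difference rested on this library.

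The ratio of *mt-Rnr1* to *mt-Rnr2* counts depends on no scaling between libraries, since both RNAs come from the same stretch of the precursor and the same library. It was 0.0852, 0.0998, 0.0915 and 0.0967 in the controls and 0.0957, 0.0962, 0.121 and 0.138 in the *Fezf2* shRNA libraries. Replicates 3 and 4 of *Fezf2* shRNA stood apart, and replicates 1 and 2 lay inside the control range. Per length, *mt-Rnr2* was counted 5.88 times as often as *mt-Rnr1* over all libraries. The rRNAs are unlike in level although both are made from a shared precursor. Whether the kit removed part of the rRNA was not given in the sources used here.

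**Figure D2:**
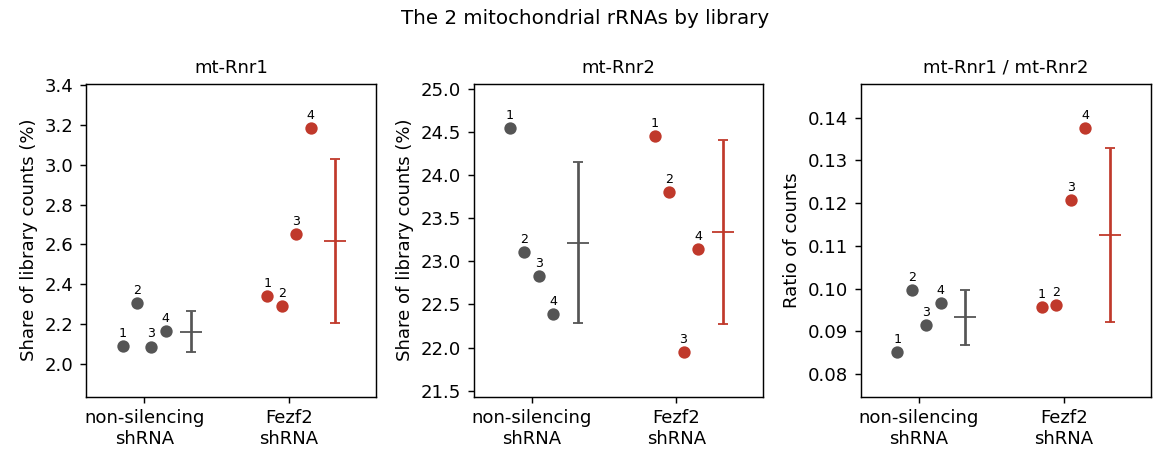
Share of library counts (%) of *mt-Rnr1* and *mt-Rnr2* and the ratio of their counts, with 1 numbered point per library and bars for the mean ± SD (n = 4); the axes do not start at 0. *Fezf2* shRNA replicates 3 and 4 lie above all controls for *mt-Rnr1* (2.65% and 3.18%) and for the ratio (0.121 and 0.138), and *mt-Rnr2* overlaps.

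Of the 25 members that passed the filter on low counts (more than 8 CPM in at least 4 libraries), 0 passed the threshold in edgeR, against 2.09% of all genes tested (1.96% higher and 0.131% lower with *Fezf2* shRNA). At an unadjusted p under 0.05 the count was 1 of 25, *mt-Rnr1*, against 19.6% of all genes tested (11.8% higher and 7.73% lower). DESeq2 with or without its prior called 1 of 25. Among all 9959 genes it called 645 up and 89 down with its prior, and 658 up and 94 down without it. None of the 37 members had groups that did not overlap, against 7.41% of the genes tested for higher and 4.41% for lower values with *Fezf2* shRNA. A p above the threshold does not show that a member was equal between treatments. For the 13 mRNAs, the 95% intervals of the log2 fold change reached from -0.36 (*mt-Nd4l*) to 0.36 (*mt-Nd5*).

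**Figure D3:**
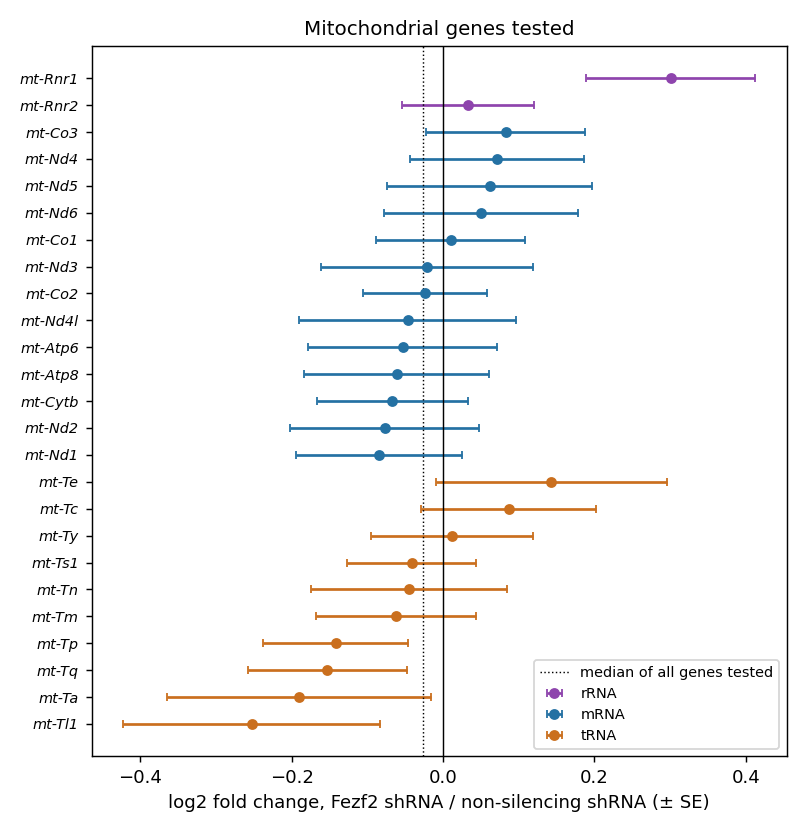
Log2 fold change (*Fezf2* shRNA over non-silencing shRNA) of the 25 mitochondrial genes tested, with points for edgeR's estimate and bars for ± SE, coloured by class; the solid line is 0 and the dotted line the median of all genes tested. *mt-Rnr1* lies highest at 0.30, and the mRNAs lie between -0.08 and 0.08.

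The mRNAs of complex IV (cytochrome c oxidase, which passes electrons to oxygen) were the most abundant. *mt-Co1*, *mt-Co2* and *mt-Co3* together made up 60.3% ± 0.966 of mitochondrial mRNA counts in the controls and 61.5% ± 1.96 in the *Fezf2* shRNA libraries (SD, n = 4 each). *mt-Co1* (chrM:5328-6872, plus strand) had 847787, 769103, 687484 and 747018 counts in the controls and 821481, 774706, 658204 and 772058 in the *Fezf2* shRNA libraries, with replicate 3 lowest in both. Its log2 fold change was 0.01 (SE 0.0987), that of *mt-Co2* -0.02 (SE 0.0816) and that of *mt-Co3* 0.08 (SE 0.105), with adjusted p from 0.686 to 0.969 in edgeR's test.

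The ATP synthase genes *mt-Atp6* and *mt-Atp8*, whose messages lie on 1 RNA, made up 13.5% ± 0.427 and 13.01% ± 0.833 of mRNA counts in controls and *Fezf2* shRNA libraries. Their log2 fold changes were -0.05 (SE 0.125) and -0.06 (SE 0.122). *mt-Cytb*, the mitochondrial subunit of complex III, made up 5.90% ± 0.318 and 5.63% ± 0.154 of mRNA counts (SD, n = 4 each) and had a log2 fold change of -0.07 (SE 0.1002). In none of these did the treatments separate.

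The 7 genes of complex I (NADH dehydrogenase, the entry point of electrons) made up 20.3% ± 0.705 and 19.8% ± 1.08 of mRNA counts (SD, n = 4 each). *mt-Nd1* had the lowest log2 fold change among the mRNAs, -0.08 (SE 0.110), and *mt-Nd4* the highest of this complex, 0.07 (SE 0.115). *mt-Nd6*, the only mRNA gene on the minus strand, was at 0.05 (SE 0.128). It shares 14 bases with *mt-Nd5* on the other strand, and where strand was ignored its RNA cannot be told apart from that of the opposite strand.

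Over the 13 mRNAs the median log2 fold change was -0.02, next to -0.03 over all 9959 genes tested. For 8 of 13 it was below 0 (56.6% of all genes tested). This split rested on single libraries and on the handling of gene span. Without *Fezf2* shRNA replicate 3 all 13 were above 0 (0.01 to 0.13), without *Fezf2* shRNA replicate 1 the value was below 0 for 12 of 13, without control replicate 1 it was below 0 for 3, and with a per-library offset for genomic span all 13 were above 0 (median 0.10). The 357 nuclear genes tested with a span under 2 kb had a median of -0.13, and 299 of them were below 0. A trend of the fold change over span was not tested.

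The mRNAs varied together from library to library. The highest normalized count was in *Fezf2* shRNA replicate 1 for 9 of the mRNAs and in control replicate 1 for the other 4. The lowest was in *Fezf2* shRNA replicate 3 for 8, in *Fezf2* shRNA replicate 2 for 3 and in control replicate 3 for 2. As a description over 8 libraries that share depth and scaling, Pearson's r between mRNAs had a median of 0.795 over 78 pairs. The highest r, 0.992, was between *mt-Atp8* and *mt-Atp6*, which share 43 bases, and the lowest, 0.190, between *mt-Co3* and *mt-Nd6*. *mt-Rnr2* followed the mRNAs (median r = 0.694), and *mt-Rnr1* did not (median r = -0.104).

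**Figure D4:**
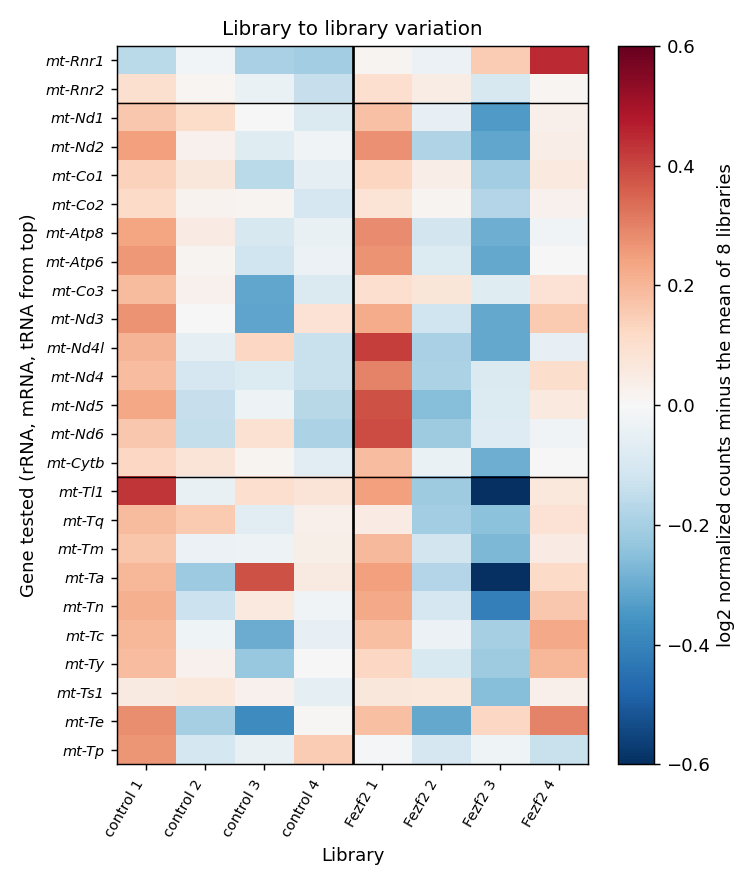
Deviation of each gene tested from its mean over the 8 libraries (log2 normalized counts, colour scale from -0.6 to 0.6), with libraries in columns (control left of the line, *Fezf2* shRNA right) and rRNA, mRNA and tRNA genes from the top. Replicate 1 of both treatments is red for every mRNA and *Fezf2* shRNA replicate 3 blue for every mRNA, while *mt-Rnr1* is red in *Fezf2* shRNA replicates 3 and 4.

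Levels per length, in CPM per kb over all libraries, differed between the mRNAs by 26.3 times. *mt-Co1* was highest (8732), followed by *mt-Co3* (5738), *mt-Atp8* (5539), *mt-Atp6* (5138) and *mt-Co2* (4687). Among the last 4, each differed from the next in order by less than the larger of their SDs (which reached 865 for *mt-Atp8*), but *mt-Co3* and *mt-Co2* lay further apart than either of their SDs. These SDs are between libraries. Since the mRNAs varied together, they do not measure the spread of a difference between genes within a library. *mt-Nd1* (3668) and *mt-Cytb* (1755) came next in level. The shortest mRNA genes are *mt-Atp8* (204 bases) and *mt-Nd4l* (297 bases). Reads in the 43 bases that *mt-Atp8* shares with *mt-Atp6* can count for both genes. How far gene length and shared reads raise these levels was not tested.

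The other complex I genes were lower, with *mt-Nd2* at 1023 CPM per kb, *mt-Nd3* at 899, *mt-Nd4* at 781 and *mt-Nd4l* at 600. *mt-Nd2* and *mt-Nd3*, and *mt-Nd3* and *mt-Nd4*, differed by less than the larger of their SDs (167 for *mt-Nd2* and 149 for *mt-Nd3*), and *mt-Nd4l* lay further below *mt-Nd4*. The order of the first 3 was the same in both groups. Their means were 1060, 915 and 769 in the controls and 986, 884 and 793 with *Fezf2* shRNA. *mt-Nd5* (375) and *mt-Nd6* (332) were the lowest. Of the overlapping genes whose joints are shown above, *mt-Atp8* and *mt-Atp6* differed in level by less than their SDs, and *mt-Nd4l* and *mt-Nd4* by more. The mean of *mt-Atp8* was above that of *mt-Atp6* in both groups (5708 and 5281 in the controls, 5370 and 4995 with *Fezf2* shRNA). Their r over the libraries was 0.992, so these SDs do not measure the spread of their difference.

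**Figure D5:**
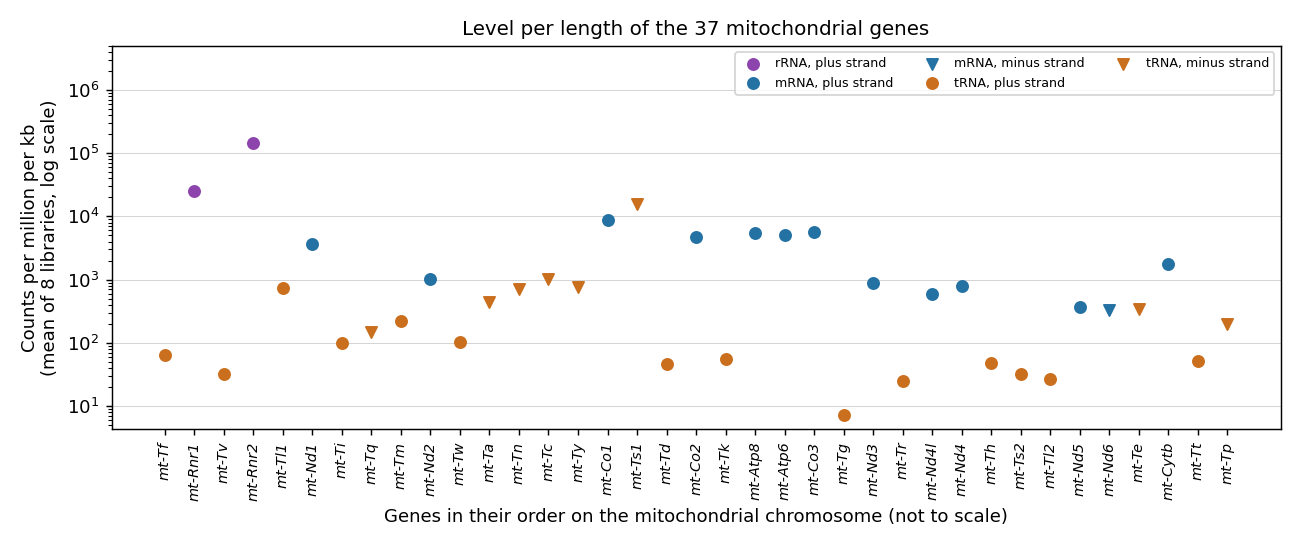
Level per length (CPM per kb, log scale, mean of 8 libraries) of the 37 mitochondrial genes in their order on the chromosome, with circles for the plus and triangles for the minus strand and colours for the class. The rRNAs are highest, the mRNAs span 332 to 8732 CPM per kb, and tRNA genes on the minus strand lie above most of those on the plus strand.

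The tRNA genes were the least counted class, and their counts need care because a mature tRNA is shorter than the inserts that kits for long RNA favour. Reads counted there can come from the tRNA, from uncut precursors, or from RNA of the other strand. All 8 tRNA genes on the minus strand passed the filter (mean counts 602 to 60442), against 2 of the 14 on the plus strand, *mt-Tl1* and *mt-Tm* (plus-strand mean counts 27.3 to 3061). The mRNAs, except *mt-Nd6*, and the rRNAs are read from the plus strand, so a minus-strand tRNA gene lies opposite to a plus-strand precursor.

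*mt-Ts1* alone took 75.2% of the tRNA counts on average. It had 63614, 61130, 62504 and 59819 counts in the controls and 62655, 62728, 50694 and 60394 in the *Fezf2* shRNA libraries. *Fezf2* shRNA replicate 3 was lower than the rest, and the other libraries lay within a narrow range. In mammals the mature *mt-Co1* message carries the complement of *mt-Ts1* at its 3′ end, and for each 100 *mt-Co1* counts there were 7.50 to 9.09 *mt-Ts1* counts in the controls and 7.63 to 8.10 in the *Fezf2* shRNA libraries. The log2 fold change of *mt-Ts1* was -0.04 (SE 0.0853).

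Plus-strand tRNA genes were counted little beside their neighbours. *mt-Tv* had a mean of 123 counts between the 1344650 of *mt-Rnr1* and the 13111400 of *mt-Rnr2*, both of which it touches. The glycine gene *mt-Tg* (chrM:9391-9458, plus strand), between *mt-Co3* and *mt-Nd3*, had 27.3 counts, 0.0108% of those of *mt-Co3*, and was the lowest member. *mt-Tl1*, at the end of *mt-Rnr2*, was the highest of the strand with 3061 counts, 0.0234% of its neighbour.

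*mt-Tl1* also had the lowest log2 fold change of all members tested, -0.25 (SE 0.170, adjusted p = 0.419 in edgeR's test). It had 4099, 2814, 3262 and 3248 counts in the controls and 3520, 2573, 1911 and 3061 in the *Fezf2* shRNA libraries. *Fezf2* shRNA replicate 3 was again the lowest and control replicate 1 the highest, and without that *Fezf2* shRNA library the value was -0.10.

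The other tRNA genes tested ran from -0.19 (*mt-Ta*, alanine, SE 0.174) through *mt-Tq* at -0.15 (glutamine, SE 0.105), *mt-Tp* at -0.14 (proline, SE 0.0960), *mt-Tm* at -0.06 (methionine, SE 0.105), *mt-Tn* at -0.04 (asparagine, SE 0.129) and *mt-Ty* at 0.01 (tyrosine, SE 0.107). *mt-Tc* (cysteine) was at 0.09 (SE 0.115) and *mt-Te* (glutamic acid) at 0.14 (SE 0.153), and the adjusted p of all 10 tRNA genes tested was at least 0.419 in edgeR's test. The value was below 0 for 7 of the 10, with a median of -0.05, and for 4 without *Fezf2* shRNA replicate 3 or with the span offset. The 12 tRNA genes under the filter had 20 to 496 counts per library. Of these, *mt-Tf*, *mt-Th* and the remaining 10 (*mt-Ti*, *mt-Tw*, *mt-Td*, *mt-Tk*, *mt-Tr*, *mt-Tg*, *mt-Ts2*, *mt-Tl2*, *mt-Tt* and *mt-Tv*) all had overlapping groups, with mean normalized counts higher in the *Fezf2* shRNA group for 2 and lower for 10.

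Parts of the mitochondrial genome have near copies in nuclear chromosomes, and reads from both cannot always be told apart. Among annotated transcripts, 17 nuclear genes matched at least 100 bases of a member at 90% identity or more, and 11 members had such a match. Of the 17, 9 have rows in the table used here and the other 8 were not analysed here. Those 8 include copies 100% identical over 678 to 876 aligned bases: *Gm10925* (*mt-Atp6*), *Gm28661* (*mt-Co2*), *Gm28437* (*mt-Co3*) and *Gm28439* (*mt-Nd4*). They also include *Gm28438* (99.71% identical to *mt-Nd3*) and *Gm29216* (99.79% identical to *mt-Co1*). The next genes named are among the 9 with rows. *Gm10222*, on chromosome 1, is identical to *mt-Nd4l* over 294 bases and had 99.97% to 100.62% of its counts in every library, so the same reads appear to stand in both rows. Its log2 fold change, -0.05 (SE 0.144), equals that of *mt-Nd4l*, -0.05 (SE 0.144). *Gm13341* (95.9% identical to *mt-Co2*) had 13.2% of the *mt-Co2* counts and *Gm13340* (97.6% identical to *mt-Co1*) 3.16% of the *mt-Co1* counts.

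Nuclear genes of mitochondrial gene expression were described beside the members, as a list of 58. The list holds genes that copy or transcribe mitochondrial DNA, genes that process its RNA, and nuclear regulators such as *Ppargc1a*. Of these, 27 passed the filter and 0 passed the threshold in edgeR, against 2.09% of all genes tested. For 24 of the 27 the log2 fold change was below 0 (56.6% of all genes tested), and its median was -0.06 (-0.03 over all genes). With the span offset 14 of the 27 were below 0 and the median was -0.0032, and with scaling over nuclear genes 19 were below 0. With library totals 25 were below 0 (6337 of all 9959 genes tested). With the filter at 1 CPM 50 of 58 were below 0 (9172 of 16481 genes tested), and with no filter 47 of 58 (15044 of 29623). At an unadjusted p under 0.05 the count was 1 of 27 in edgeR, against 19.6% of all genes tested. It was 0 in edgeR with DESeq2's size factors, scaling over nuclear genes, the replicate block or the span offset. With library totals or the widest transcript it was 1. With the filter at 1 CPM or no filter it was 5 of 58 each, against 2617 of 16481 and 3206 of 29623 genes tested. DESeq2 with or without its prior called 0 and also had 0 at an unadjusted p under 0.05. The gene counted in the main edgeR fit was *Tfam*, which packages mitochondrial DNA and starts its transcription. It had 778, 758, 811 and 720 normalized counts in the controls and 688, 667, 694 and 673 in the *Fezf2* shRNA libraries. Its groups did not overlap (4.41% of genes tested were lower in this way), with a log2 fold change of -0.17 (SE 0.0750, unadjusted p = 0.0432, adjusted p = 0.239, edgeR's test).

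The other 4 with the smallest p had overlapping groups. *Polg*, the catalytic subunit of the mitochondrial DNA polymerase, was at -0.14 (SE 0.0689), *Fastk*, a mitochondrial RNA-binding protein, at -0.17 (SE 0.0914), and *Supv3l1*, a helicase of mitochondrial RNA decay, at -0.15 (SE 0.0935). *Ppargc1a*, a nuclear coactivator of mitochondrial biogenesis, was at 0.14 (SE 0.0810). The adjusted p of these 4 was 0.293 to 0.396 in edgeR's test.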

How the data were processed

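Total RNA libraries of M1 from 4 *Fezf2* shRNA and 4 non-silencing shRNA mice (paired-end, TruSeq total RNA kit) were grouped by their titles. The paper names the kit as TruSeq Stranded and the labels as TruSeq Standard. The authors trimmed the reads, aligned them to mm10 (GRCm38) with TopHat2 2.1.1 and counted them over whole Ensembl transcript intervals with BEDTools multiCov 2.26.0, as the paper's methods and the submitters' processing notes give it. The deposited values used here are these raw counts per transcript. Options for strand and for reads with several alignments were not given in the sources used here. The deposited table of the authors' DESeq2 results (base means, fold changes, test statistics and p-values) was not used.

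Of 94647 transcripts, 91320 matched GENCODE M21, and 1.82% of counts lay on the 3327 others. The transcript with the lowest Ensembl number stood for each gene. A share is the percent of counts on all genes so chosen, and since intervals of different genes overlap it is not a share of reads. A gene was tested (9959 genes) if it exceeded 8 CPM in 4 or more libraries, with edgeR 4.0.16 (TMM, quasi-likelihood test, Benjamini-Hochberg adjustment over all genes tested, no covariate) in R 4.3.3. Normalized counts were scaled to the mean effective library size. SE is the log2 fold change divided by the root of the test's F. Near copies were searched among annotated transcripts with BLAST+ 2.17.0. The steps were tested on simulated data.

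Every member is named, and of the nuclear list the genes past the threshold and the 5 with the smallest p. The members and lists were chosen with earlier results of these data known. Alternatives were other scalings (library totals, size factors of DESeq2 1.42.0, TMM over nuclear genes), filters (more than 1 CPM, or none), DESeq2, another threshold, the widest transcript, an offset for genomic span (loess, span 0.3), the replicate number as a block, and each library left out. For the shares, other denominators, such as the counts of all transcripts or of nuclear genes only, were also used. For most members counting error is far below the spread between libraries.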

Additional observations from a re-analysis of the deposited data

Results flagged for a closer look

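Of the 84 groups of 4 libraries examined, 2 held a library far from the others, and by chance about 1 in 20 groups would. In the *Fezf2* shRNA group, *mt-Ts1* had 50453 normalized counts in replicate 3 and 61694 to 63229 in the others. In the control group, *mt-Nd4* had 68524 normalized counts in replicate 1 and 54864 to 56979 in the others. What set these libraries apart was not tested.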

How the results depend on the processing

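Of the counts of mitochondrial genes past the threshold, only that of the rRNAs moved, from 0 to 1 (*mt-Rnr1*) with DESeq2 with and without its prior. *mt-Rnr1* was above 0 under every alternative run (adjusted p 0.0436 to 0.383), and its log2 fold change lay between 0.19 and 0.36 when each library was left out in turn. None of the other members passed the threshold under any alternative, and a value near 0 often changed sign. The cause was not tested.

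With library totals, *mt-Ty* was at -0.02 (-0.0153) and *mt-Co1* at -0.02 (-0.0165). With the offset for genomic span, 11 members turned from below to above 0, namely *mt-Nd1* (0.0378), *mt-Tm* (0.0544), *mt-Nd2* (0.0456), *mt-Tn* (0.0753), *mt-Ts1* (0.0743), *mt-Co2* (0.1003), *mt-Atp8* (0.0567), *mt-Atp6* (0.0675), *mt-Nd3* (0.0969), *mt-Cytb* (0.0542) and *mt-Nd4l* (0.0784). With the replicate block and the span offset together they were at 0.0304 (*mt-Nd1*), 0.0501 (*mt-Tm*), 0.0336 (*mt-Nd2*), 0.0594 (*mt-Tn*), 0.0726 (*mt-Ts1*), 0.0991 (*mt-Co2*), 0.0511 (*mt-Atp8*), 0.0630 (*mt-Atp6*), 0.1017 (*mt-Nd3*), 0.0474 (*mt-Cytb*) and 0.0552 (*mt-Nd4l*).

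Leaving out each library in turn gave ranges that crossed 0 for *mt-Rnr2* (-0.0032 to 0.0782), *mt-Nd1* (-0.1608 to 0.0139), *mt-Nd2* (-0.1925 to 0.0156), *mt-Nd3* (-0.1107 to 0.0791), *mt-Nd4* (-0.0234 to 0.1489), *mt-Nd4l* (-0.2198 to 0.0503), *mt-Nd5* (-0.0694 to 0.1550), *mt-Nd6* (-0.0904 to 0.1250), *mt-Co1* (-0.0324 to 0.0854), *mt-Co2* (-0.0577 to 0.0367), *mt-Atp6* (-0.1612 to 0.0413), *mt-Atp8* (-0.1780 to 0.0293), *mt-Cytb* (-0.1440 to 0.0213), *mt-Tm* (-0.1419 to 0.0204), *mt-Tn* (-0.1329 to 0.0763), *mt-Ts1* (-0.0703 to 0.0399) and *mt-Ty* (-0.0554 to 0.0902). *Fezf2* shRNA replicate 3 turned 11 members when left out, control replicate 1 turned 6 and *Fezf2* shRNA replicate 1 turned 5. The differences in class share and in the ratios moved by less than the pooled SD between libraries. This also held for the tRNA share without *mt-Ts1*, which was chosen after seeing the data. When a library is left out, groups of this size cannot give a larger move, so that comparison does not measure stability. With each library left out in turn, the difference in rRNA share lay between 0.297 and 1.03 percentage points. That in mRNA share lay between -0.204 and 0.064, turning sign without control replicate 1 or *Fezf2* shRNA replicate 3, and that in tRNA share between -0.0103 and -0.00041. The move in tRNA share without *Fezf2* shRNA replicate 3 was larger than the SD of the controls (0.0033).

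The labels number replicates in both treatments, but over all genes tested not every pair of same-numbered libraries deviated together (correlations 0.30, 0.09, -0.13 and 0.17), and 4 of 8 libraries correlated best with their own number. With the replicate block, 84 genes of all tested passed the threshold upward and 6 downward, against 195 and 13 without it, and *mt-Rnr1* was at 0.29 (adjusted p = 0.219). For the mitochondrial mRNAs replicate 1 was high in both treatments. The SE of *mt-Nd3* was 0.0667 with the block and 0.140 without it, but that of *mt-Co2* was 0.0802 and 0.0816. For *mt-Rnr1* the SE was 0.117 with the block and 0.111 without it. No member passed the threshold with the block. In edgeR the count over all genes was 0 without control replicate 1 (1568 genes at an unadjusted p under 0.05) and 335 up and 33 down without control replicate 2. It was 0 up and 2 down with the span offset, and 645 up and 89 down in DESeq2 with its prior. Depth limits the 12 tRNA genes under the filter.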
